A study of Sus scrofa with 3 samples.

Results

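The 10 genes described here are PEG10, SGCE, PEG3, MEST, IGF2, IGF2R, DLK1, PLAGL1, CDKN1C and NNAT, a set of imprinted genes taken by symbol from 26466 symbols in pig cells. All 10 had 1 row each. The set was chosen by name after the levels of PEG10 in these libraries were known, so the values below are a description of the members and no test of the set. Messenger RNA was counted at its 3' end (Lexogen QuantSeq) in 3 libraries, 1 for each population: PBMC, the mononuclear cells of peripheral blood, BM-MSC, mesenchymal stem cells derived from bone marrow, and BMAC, labelled as an attached cell of bone marrow. The labels give no animal, breed, age, sex, culture time or passage for any of them, and no treatment. With 1 library per population no difference has a replicate check, no p-value is given, and every interval in parentheses is a 95% interval for counting error only.

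An imprinted gene is transcribed mainly or only from the copy inherited from the mother, or only from that of the father, because DNA methylation laid down in the egg or sperm marks the parental copies differently. Many imprinted genes act on growth of the fetus and placenta, and several stay active after birth in stem and progenitor cells, including those of the mesenchyme. PEG10, SGCE, PEG3, MEST, IGF2, DLK1, PLAGL1 and NNAT are known as paternally expressed in mammals studied so far, and CDKN1C and, in mouse, IGF2R as maternally expressed. The counts sum both parental copies, so imprinting itself was not measured.

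The PBMC library held 15445903 counts, the BM-MSC library 17069344 and the BMAC library 15122997. Levels are given as counts per 1000000 (CPM), and 3 values in a row without library names are in the order PBMC, BM-MSC, BMAC. The 9 PBMC markers summed to 4043, 6.21 and 20.3 CPM, with 3 of them at 0 in BM-MSC and 4 in BMAC, and the 9 marrow stroma markers to 61.7, 13145 and 10799 CPM. Most of the sums of the stroma markers in the marrow libraries came from COL1A1, COL1A2 and COL3A1. LEPR and CXCL12, defining genes of marrow stroma in the body, were low in both marrow libraries. LEPR stood at 4.40, 2.64 and 2.51 CPM, highest in PBMC, and CXCL12 at 0.194, 1.17 and 0.595 CPM. PTPRC, the leukocyte antigen, stood at 2884, 1.11 and 1.85 CPM. The monocyte marker CD14 was not lower in BMAC than in blood, at 12.9, 3.63 and 17.3 CPM. CD68, of the same list, went the other way at 4.14, 0.820 and 0.793 CPM, as did SLA-DRA at 432, 0 and 0 CPM. The part of monocytes in the values of BMAC was not tested. Ribosomal RNA rows took 5.29%, 15.5% and 11.4% of the counts, and leaving them out of the totals together with mitochondrial rows changed no member's call. In such bulk samples fewer cells of a type and less RNA per cell cannot be told apart.

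The members did not share a single pattern. PEG10, SGCE and CDKN1C stood at 24.6 CPM or more in both marrow libraries and under 1 CPM in blood cells. IGF2R and PLAGL1 ran the other way, highest in PBMC, lowest in BM-MSC and between them in BMAC. PEG3, IGF2 and NNAT were highest in BM-MSC at low levels. MEST was present in all 3 libraries, and DLK1 had 0 counts in each.

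**Figure D1:**
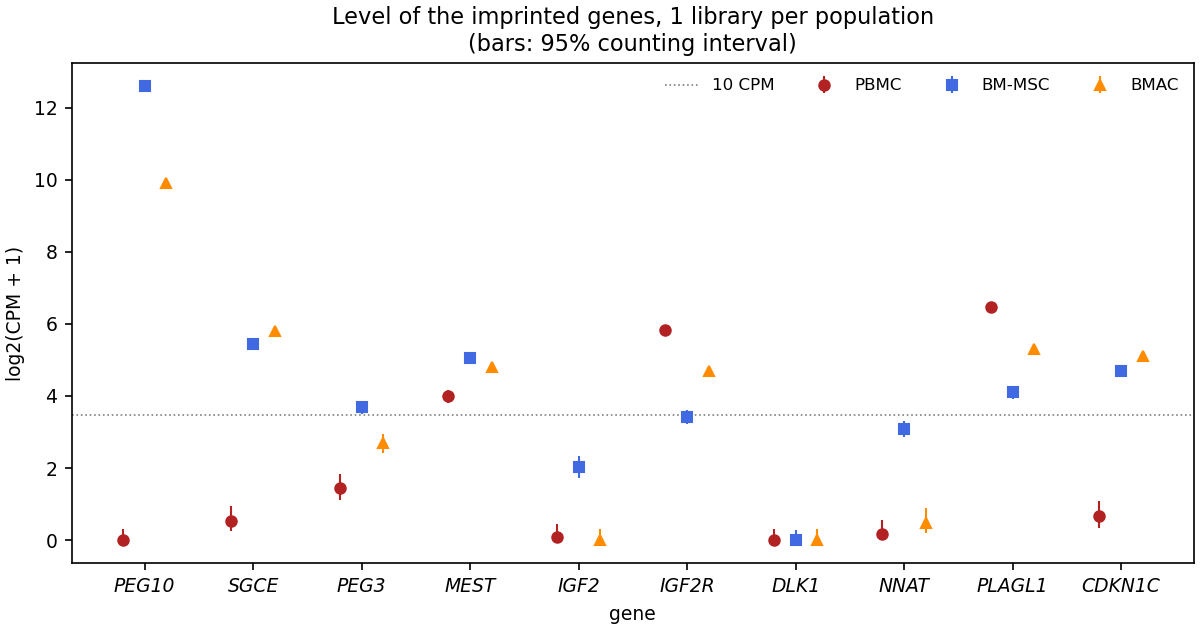
Level of each of the 10 genes as log2(CPM + 1) in the PBMC (circles), BM-MSC (squares) and BMAC (triangles) libraries, with 95% counting intervals and 10 CPM dotted. PEG10 sits far above the others in the marrow libraries, at 6156 CPM in BM-MSC, while IGF2R and PLAGL1 are highest in PBMC and DLK1 lies at 0 throughout.

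A gene was called different in a pair of libraries when its log2((CPM + 1)/(CPM + 1)) reached 2 or -2, that is 4-fold with a pseudocount of 1 CPM, and its higher level met a floor of 10 CPM and 10 counts. In BM-MSC against PBMC, 7 members were above that floor, of which PEG10, SGCE, PEG3 and CDKN1C were called higher in BM-MSC and IGF2R and PLAGL1 lower. Of all 11428 genes above the floor, 14.3% were called higher and 15.7% lower. For 5 of the 7 members only 1 of the 2 libraries reached 10 CPM, which favours a call, so the count supports nothing about the set. In BMAC against PBMC, 6 members were above the floor, and PEG10, SGCE and CDKN1C were called higher, against 14.0% of 11371 genes called higher and 12.8% lower. These 3 called members reached 10 CPM in BMAC only, so this count too supports nothing about the set. In BM-MSC against BMAC, 7 members were above the floor and PEG10 alone was called, higher in BM-MSC, against 2.90% of 10303 genes called higher and 3.21% lower. The median log2 ratio of all genes above the floor was -0.16, -0.12 and -0.09 in these comparisons. Both comparisons with blood use the same PBMC library.

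**Figure D2:**
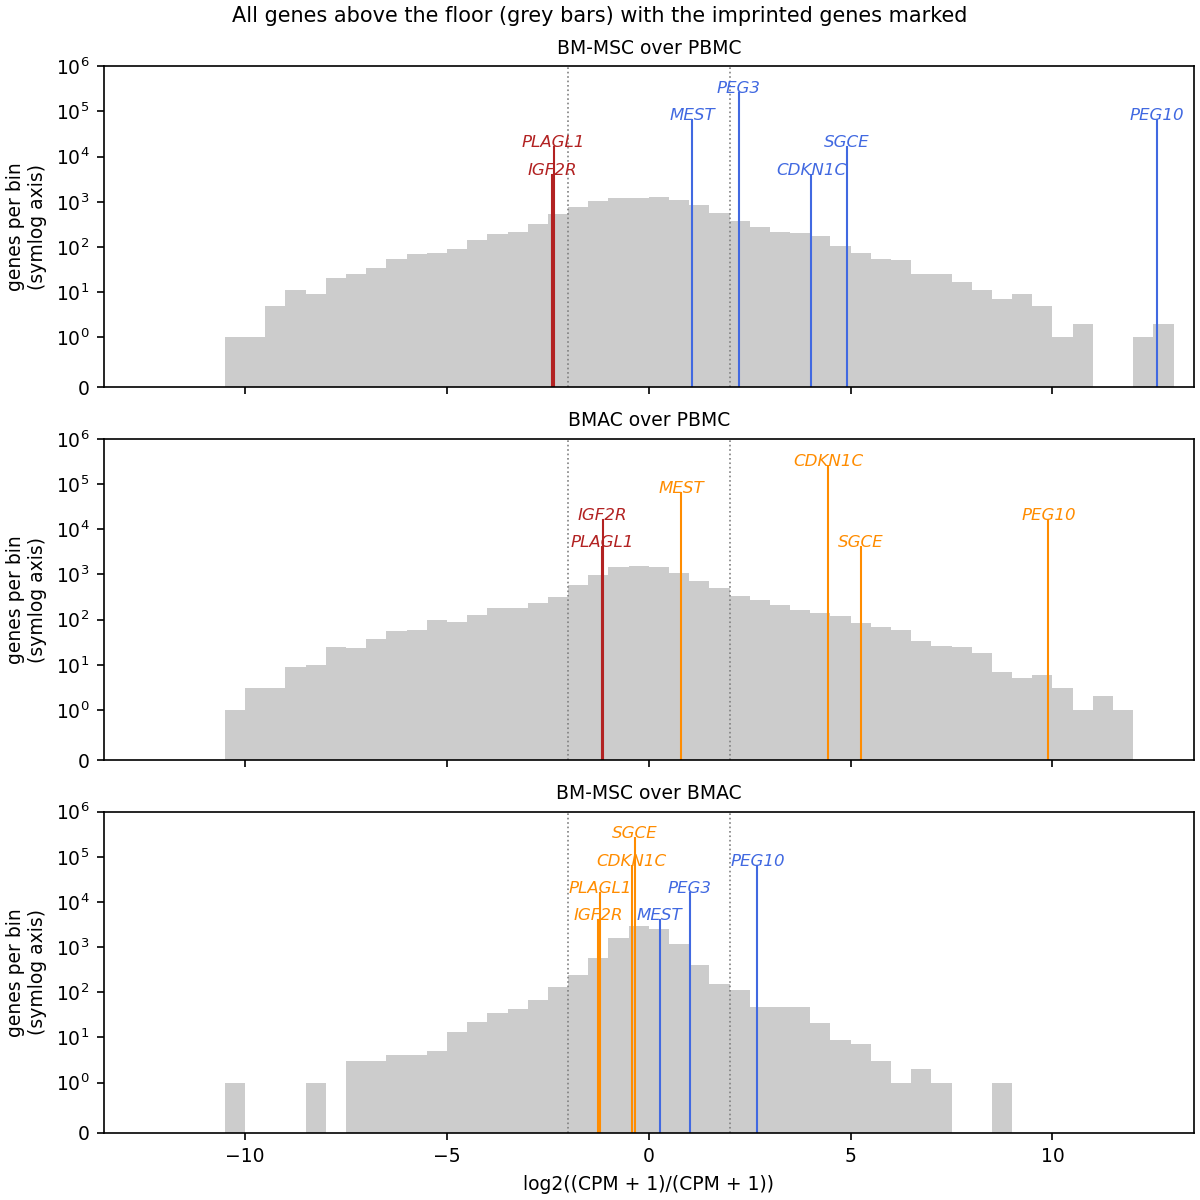
Number of genes by log2((CPM + 1)/(CPM + 1)) in bins of 0.5 (grey, symlog axis) for the 3 comparisons, with members above the floor marked in the colour of the library where they are higher (red PBMC, blue BM-MSC, orange BMAC) and 4-fold dotted. PEG10 lies at 12.59 for BM-MSC over PBMC, 9.90 for BMAC over PBMC and 2.69 for BM-MSC over BMAC, and IGF2R and PLAGL1 lie side by side in all 3 panels.

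PEG10 derives from a retrotransposon whose gag-like and pol-like reading frames a mammalian ancestor kept as a gene, and in mice it is needed for the placenta. It had 0 counts in PBMC, where 3 counts would be 0.194 CPM, but 105074 counts in BM-MSC (6156 CPM) and 14453 counts in BMAC (956 CPM). Both marrow libraries were thus far above blood, at least 31694-fold for BM-MSC and at least 4921-fold for BMAC. Between the marrow libraries PEG10 was 6.44-fold higher in BM-MSC (6.33 to 6.55). Ranked by counts, which are of transcript ends and not scaled by length, it was row 9 of BM-MSC and row 90 of BMAC. In RefSeq's table for Sscrofa11.1 it lies on chromosome 9 and overlaps no other row. How reads that map to several places were counted is not given in the sources used here, and its part in the level of a gene of retrotransposon origin was not tested.

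SGCE encodes epsilon-sarcoglycan, a membrane protein of the sarcoglycan complex, and is the gene next to PEG10. In mammals the pair is known to share a promoter region that is methylated on the maternal copy. SGCE had 7 counts in PBMC (0.453 CPM), 726 in BM-MSC (42.5 CPM) and 824 in BMAC (54.5 CPM). It was 93.9-fold (45.3 to 234) and 120.2-fold (58.1 to 300.0) higher in the marrow libraries than in PBMC. Unlike PEG10, SGCE was not higher in BM-MSC than in BMAC but 1.28-fold higher in BMAC (1.16 to 1.42).

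The divergence of the neighbours can be read without any scaling of the libraries. PEG10 had 145 counts for each count of SGCE in BM-MSC (135 to 156) and 17.5 in BMAC (16.3 to 18.8). The ratio of PEG10 to SGCE counts therefore differed 8.25-fold between the marrow libraries (7.46 to 9.13). The PBMC library held 0 counts of PEG10 and 7 of SGCE. This pair, and the other pairs of genes set against each other below, were chosen after their values were seen.

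The rows nearest to PEG10 and SGCE were read next. PPP1R9A, the nearest named gene beyond PEG10, encodes the actin-binding protein neurabin and stood at 12.6, 15.0 and 14.7 CPM. The unnamed row LOC100738575, beside SGCE, ran the opposite way, at 659, 62.1 and 131 CPM. CASD1, a sialic acid acetyltransferase gene, stood at 31.4, 22.4 and 23.6 CPM and overlaps LOC106504956. High marrow and low blood levels were thus seen in PEG10 and SGCE, while PPP1R9A and CASD1 were nearly flat and LOC100738575 ran the opposite way. Farther away on chromosome 9, TFPI2 and PON2, described with the other imprinted genes below, also had higher levels in both marrow libraries than in blood, though TFPI2 was below the floor in BMAC against PBMC.

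**Figure D3:**
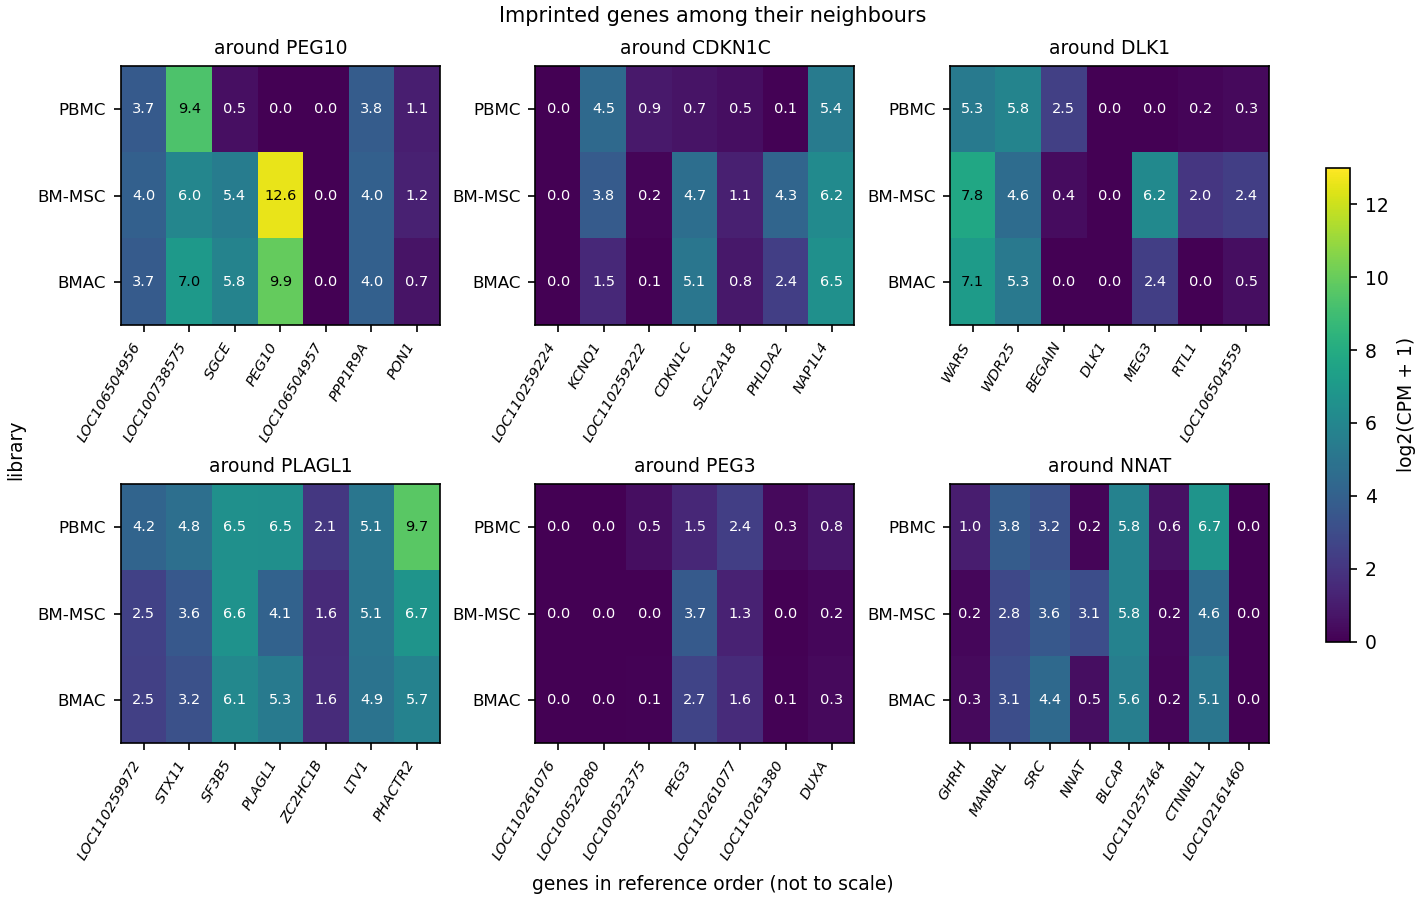
Levels as log2(CPM + 1) of 6 members and up to 3 annotated rows on each side, in the order of the RefSeq table and not to scale, with rows for PBMC, BM-MSC and BMAC (BLCAP, shown right of NNAT, overlaps it). PEG10 and SGCE, far higher in marrow than in blood, lie between rows that are nearly flat, higher in PBMC or at 0, and MEG3 stands at 71.7 CPM in BM-MSC beside DLK1 at 0.

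CDKN1C encodes a cyclin-dependent kinase inhibitor that stops cells from entering the cell cycle. It had 9 counts in PBMC (0.583 CPM), 420 in BM-MSC (24.6 CPM) and 504 in BMAC (33.3 CPM). The marrow libraries were 42.2-fold (22.0 to 93.0) and 57.2-fold (29.9 to 126) above PBMC, and BMAC was 1.35-fold above BM-MSC (1.19 to 1.55). Across the 3 libraries CDKN1C resembled SGCE, which lies on another chromosome. In BM-MSC 0.579 counts of CDKN1C were found per count of SGCE (0.512 to 0.653), and in BMAC 0.612 (0.546 to 0.684), with intervals that overlap. The 16 counts of both genes in PBMC were too few to place the ratio there, at 1.29 (0.426 to 4.06).

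Within its own imprinted region CDKN1C parted from PHLDA2, a growth-restraining gene of the placenta that lies beyond SLC22A18. PHLDA2 stood at 0.0647 (1 count), 18.2 and 4.30 CPM, so that it was 4.24-fold higher in BM-MSC than in BMAC (3.24 to 5.63), while CDKN1C was higher in BMAC. The ratio of CDKN1C to PHLDA2 counts was 1.35 in BM-MSC (1.16 to 1.57) and 7.75 in BMAC (5.98 to 10.2). KCNQ1, a potassium channel gene of the same region that overlaps LOC110259223, was highest in PBMC, at 21.0, 12.5 and 1.79 CPM. These 3 genes thus had 3 different orders over the libraries.

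Of 7 other listed inhibitors of cyclin-dependent kinases, 6 had a row. Above the floor were 4 in BM-MSC and 6 in BMAC against PBMC, of which 2 and 3 reached 10 CPM in 1 library only. CDKN1A, the p53 target, was the 1 gene of the list called higher in both marrow libraries, at 8.42, 379 and 227 CPM, beside 14.3% and 14.0% of all genes called higher. CDKN2B stood at 24.3, 34.3 and 38.7 CPM, and CDKN1B at 30.8, 16.8 and 18.5 CPM. CDKN2D stood at 17.3, 7.32 and 11.9 CPM.

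**Figure D4:**
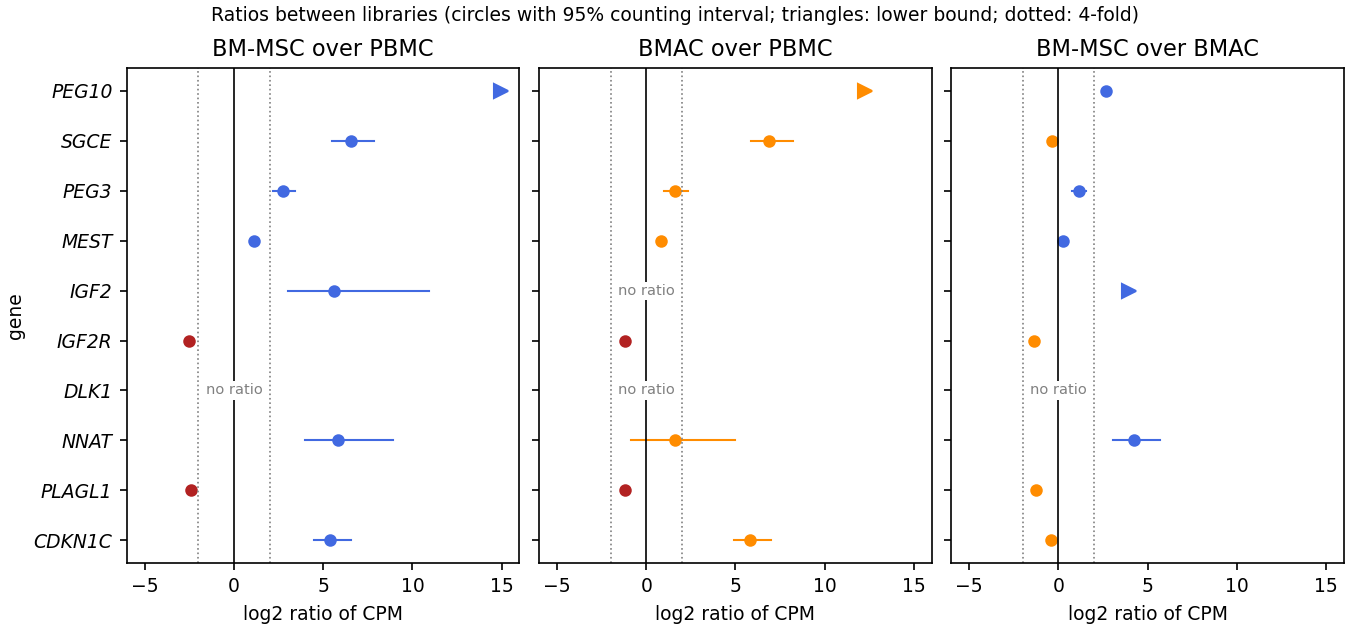
log2 ratio of CPM without pseudocount for the 10 genes in the 3 comparisons, as circles with 95% counting intervals or triangles for lower bounds where a library had 0 counts, in the colour of the higher library (red PBMC, blue BM-MSC, orange BMAC). PEG10, SGCE and CDKN1C lie far to the right against PBMC, and in BM-MSC over BMAC the ratio of SGCE (1.28-fold towards BMAC) and that of PEG10 (6.44-fold towards BM-MSC) fall on opposite sides.

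IGF2R and PLAGL1 were the members that were higher in blood. IGF2R encodes the cation-independent mannose 6-phosphate receptor, which carries enzymes to the lysosome and takes up the growth factor IGF2 for breakdown. It had 858 counts in PBMC (55.5 CPM), 166 in BM-MSC (9.73 CPM) and 374 in BMAC (24.7 CPM). PBMC exceeded BM-MSC 5.71-fold (4.83 to 6.79) and BMAC 2.25-fold (1.99 to 2.54), and BMAC exceeded BM-MSC 2.54-fold (2.11 to 3.07). The level in BMAC was below that in PBMC and above that in BM-MSC, with no overlap of the counting intervals.

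PLAGL1 encodes a zinc finger transcription factor that restrains the cell cycle and, in mouse, regulates other imprinted genes. It had 1339 counts in PBMC (86.7 CPM), 274 in BM-MSC (16.1 CPM) and 580 in BMAC (38.4 CPM). PBMC exceeded BM-MSC 5.40-fold (4.74 to 6.17) and BMAC 2.26-fold (2.05 to 2.50), and BMAC exceeded BM-MSC 2.39-fold (2.07 to 2.77). Both genes are on chromosome 1 in the RefSeq table but are not neighbours there. The counts of PLAGL1 per count of IGF2R had overlapping intervals in the 3 libraries, 1.56 in PBMC (1.43 to 1.70), 1.65 in BM-MSC (1.36 to 2.01) and 1.55 in BMAC (1.36 to 1.77). The change in that ratio was 1.06-fold from PBMC to BM-MSC (0.856 to 1.31) and 0.994-fold from PBMC to BMAC (0.850 to 1.16).

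**Figure D5:**
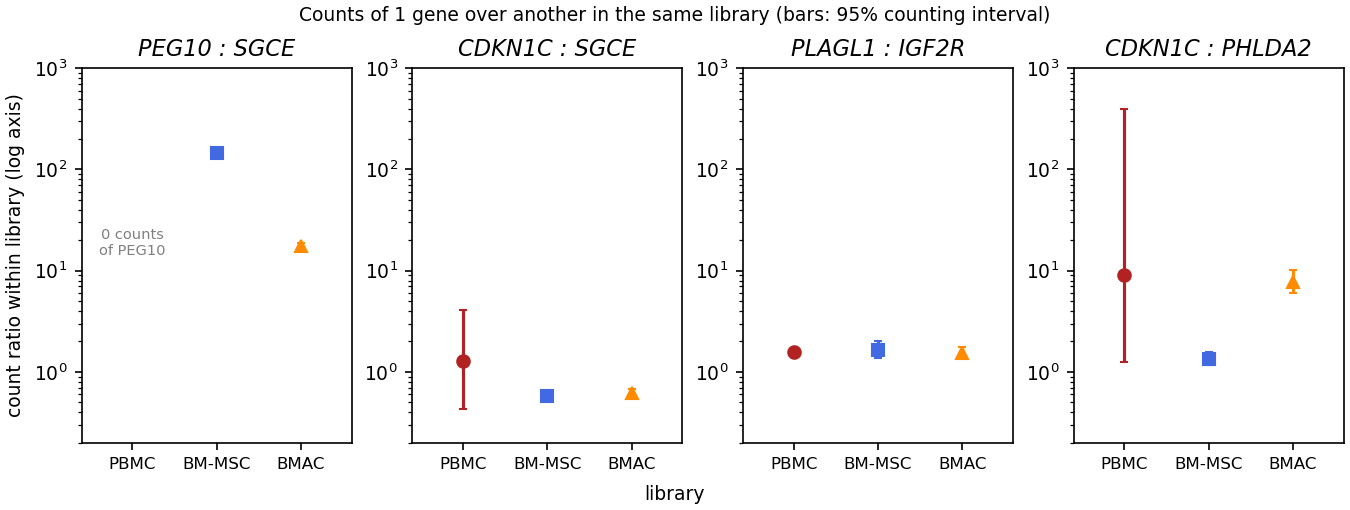
Counts of the first gene per count of the second within the same library (log axis), with 95% counting intervals, for 4 pairs in PBMC, BM-MSC and BMAC. PLAGL1 to IGF2R stays at 1.55 to 1.65 in all 3 libraries, while PEG10 to SGCE is 145 in BM-MSC and 17.5 in BMAC.

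The genes around PLAGL1 gave no common pattern. SF3B5, a splicing factor gene beside PLAGL1, stood at 92.5, 97.7 and 67.1 CPM. PHACTR2, a phosphatase and actin regulator gene further along, was high in PBMC at 814 CPM, with 104 and 52.8 CPM in BM-MSC and BMAC.

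The relatives of PLAGL1 and the partners of IGF2R were read from lists. PLAGL2, a paralogue that overlaps POFUT1, shared the order of PLAGL1, at 38.3, 10.9 and 16.7 CPM. PLAG1, which overlaps LOC110260293, stayed below 10 CPM, at 0.971, 7.56 and 7.21 CPM. Of 11 genes listed for mannose 6-phosphate sorting, other sorting or binding to IGF2R, 10 were above the floor in each comparison. SORT1 and PLAUR were called higher in both marrow libraries, with 0 called lower, beside 14.3% and 14.0% of all genes called higher. Neither makes or binds the mannose 6-phosphate tag as its known role, and no other gene of the list was called. SORT1, the sorting receptor sortilin, which overlaps LOC110260358, stood at 4.60, 169.9 and 282 CPM. M6PR, the smaller mannose 6-phosphate receptor, had the reverse order to IGF2R, at 45.4, 109 and 88.5 CPM, while GNPTAB, which makes the mannose 6-phosphate tag and overlaps DRAM1, was highest in PBMC at 175 CPM, against 78.6 and 96.9 CPM. PLAUR, the urokinase receptor, stood at 21.2, 91.3 and 127 CPM. The median log2 ratio of the list was -0.09 in BM-MSC and -0.05 in BMAC against PBMC, beside -0.16 and -0.12 for all genes.

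IGF2, the fetal growth factor that IGF2R removes, was scarce everywhere. It had 1 count in PBMC, 53 counts (3.10 CPM) in BM-MSC and 0 counts in BMAC, where 3 counts would be 0.198 CPM. BM-MSC was 48.0-fold above PBMC (8.24 to 1930) and at least 15.7-fold above BMAC, all below the floor. INS, the insulin gene beside it, had 0 counts in each library.

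Of 20 genes for IGF1 and the receptors, binding proteins and other partners of the IGFs, 9 of 12 above the floor were called higher in BM-MSC than in PBMC and 8 of 11 in BMAC, with 0 lower in either, beside 14.3% and 14.0% of all genes called higher. Of these 12 and 11, 6 and 5 reached 10 CPM in 1 library only, and the other members of the list stayed below the floor. The median log2 ratios of those above the floor were 3.34 and 4.17, beside -0.16 and -0.12 for all genes. INSR, IRS2 and IGF2BP3, named after their values were seen, were above the floor and not called, with log2 ratios of -0.52, -0.86 and -1.24 in BM-MSC and -0.24, -0.28 and -0.36 in BMAC. IGFBP5 and IGFBP2, which bind the factors outside the cell, stood at 0.129, 316 and 2196 CPM and at 0.971, 1126 and 1749 CPM. IGFBP7, which overlaps POLR2B, stood at 14.4, 309.6 and 614 CPM. PAPPA, a protease that frees the factors from binding proteins, stood at 7.77, 102 and 448 CPM. IGFBP5 and PAPPA were also called lower in BM-MSC than in BMAC, 6.95-fold (6.75 to 7.15) and 4.39-fold (4.17 to 4.63). In that comparison 12 were above the floor, with 1 called higher and 2 lower, beside 2.90% and 3.21% of all genes. IGF1, named after its values were seen, was 10.1-fold higher in BM-MSC than in BMAC (8.39 to 12.3). IGF1R, the signalling receptor, also named after its values were seen, stood at 49.5, 299 and 366 CPM, an order opposite to that of IGF2R for blood against marrow.

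DLK1 encodes a Notch-like membrane protein that holds back fat cell differentiation and is used as a marker of stromal progenitors. Its row had 0 counts in all 3 libraries, with upper ends of the counting interval at 0.239, 0.216 and 0.244 CPM. Because counts depend on annotated 3' ends, a row at 0 does not show that no transcript was made. MEG3, the maternally expressed long non-coding RNA that follows DLK1 in the same imprinted region, was detected, with 0, 1224 and 64 counts or 0, 71.7 and 4.23 CPM. It was at least 369-fold higher in BM-MSC than in PBMC and 16.9-fold higher than in BMAC (13.2 to 22.1). RTL1, the retrotransposon-derived neighbour of MEG3, had 2, 53 and 0 counts and overlaps LOC106504559. On the other side of DLK1, the BEGAIN row held 71, 6 and 0 counts.

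Of a list of Notch receptors, ligands and relatives of DLK1 and the Notch target genes HES1, HEY1 and HEYL, 14 had a row, and 4, 3 and 4 were above the floor in the comparisons of BM-MSC with PBMC, BMAC with PBMC and BM-MSC with BMAC. The ligand JAG1 was called higher in both marrow libraries, at 2.46, 70.1 and 15.8 CPM. NOTCH3, which overlaps LOC100628051, was called higher in BM-MSC, at 30.1 CPM against 1.49 CPM in PBMC and 0.992 CPM in BMAC. The median log2 ratios were 1.39, 0.08 and 1.02 in these comparisons, beside -0.16, -0.12 and -0.09 for all genes. Of the 4, 3 and 4 genes above the floor, 3, 1 and 2 reached 10 CPM in 1 library only, which favours a call. Of all genes, 14.3%, 14.0% and 2.90% were called higher and 15.7%, 12.8% and 3.21% lower. In BM-MSC against BMAC, JAG1 and NOTCH3 were called higher and NOTCH1 lower. NOTCH2 was the highest receptor of the list in counts, at 408, 225 and 231 CPM, and NOTCH1 stood at 22.6, 5.10 and 24.0 CPM.

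PEG3 encodes a large zinc finger protein that acts in growth and maternal behaviour in mice and marks several adult progenitor cells. It had 27 counts in PBMC (1.75 CPM), 203 in BM-MSC (11.9 CPM) and 82 in BMAC (5.42 CPM). BM-MSC was 6.80-fold above PBMC (4.54 to 10.6) and 2.19-fold above BMAC (1.69 to 2.87), and BMAC was 3.10-fold above PBMC (1.99 to 4.99). With a pseudocount of 5 CPM PEG3 was no longer called in BM-MSC against PBMC. The 3 counting intervals of its level did not overlap. The rows beside it held at most 6 counts (LOC100522375) and 66 counts (LOC110261077) in any library.

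NNAT encodes neuronatin, a small membrane protein of the endoplasmic reticulum related to regulators of the calcium pump, and lies inside the gene BLCAP. It had 2 counts in PBMC (0.129 CPM), 127 in BM-MSC (7.44 CPM) and 6 in BMAC (0.397 CPM). BM-MSC was 57.5-fold above PBMC (15.6 to 479.6) and 18.8-fold above BMAC (8.38 to 52.1), below the floor. PBMC and BMAC could not be told apart at this depth, at 3.06-fold (0.548 to 31.0). BLCAP stood at 53.5, 54.1 and 46.9 CPM, nearly level while NNAT was not, but reads of the genes cannot be separated without strand and the value of NNAT is uncertain.

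Of the calcium pump genes and their small regulators, 6 of 7 had a row. In each comparison with PBMC 3 were above the floor, 2 of them at 10 CPM in 1 library only. ATP2A2, the widely expressed pump, which overlaps ANAPC7, stood at 94.5, 109 and 152 CPM. ATP2A3, the pump of blood cells, was called lower in both marrow libraries, with 1 count in BM-MSC and 3 in BMAC against 85.6 CPM in PBMC. It was the only call of the list in these comparisons, beside 15.7% and 12.8% of all genes called lower. ATP2A1, the pump of fast skeletal muscle, which overlaps RABEP2, stood at 13.1, 3.05 and 3.84 CPM, and MRLN, a small regulator, at 3.43, 0.762 and 0.198 CPM.

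MEST, also known as PEG1, encodes an enzyme-like protein of the alpha/beta hydrolase fold and is linked to growth of mesoderm and fat tissue. It had 231 counts in PBMC (15.0 CPM), 553 in BM-MSC (32.4 CPM) and 404 in BMAC (26.7 CPM). The marrow libraries exceeded PBMC 2.17-fold (1.85 to 2.54) and 1.79-fold (1.52 to 2.11), and BM-MSC exceeded BMAC 1.21-fold (1.06 to 1.38), all short of the 4-fold rule. MEST overlaps COPG2, a coat protein gene, and LOC110257546, so its value is uncertain. COPG2 had the reverse order, at 66.6, 20.0 and 40.7 CPM, and 4.45 counts of COPG2 were found per count of MEST in PBMC (3.86 to 5.16) but 0.618 in BM-MSC (0.539 to 0.709).

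The sarcoglycan complex of SGCE was described by 14 genes of the complex and its dystrophin-linked partners. In BM-MSC against PBMC 4 of 12 above the floor were called higher (SGCD, DAG1, SSPN and LAMA2) and 2 lower (SNTB1 and DTNB), beside 14.3% and 15.7% of all genes, and 5 of the 12 reached 10 CPM in 1 library only. In BMAC against PBMC 4 of 11 were called higher, SGCD, DAG1 and SSPN among them, and 2 lower (SNTB1 and DTNA), beside 14.0% and 12.8% of all genes. DTNA overlaps LOC110261193. The median log2 ratios were 0.34 and -0.29, beside -0.16 and -0.12 for all genes. In BM-MSC against BMAC 10 were above the floor, 2 of them at 10 CPM in 1 library only. LAMA2, a laminin chain gene, was the 1 call there, higher in BM-MSC, beside 2.90% of all genes called higher. It stood at 8.48, 39.5 and 3.97 CPM. SGCD, the delta subunit, stood at 19.9, 249 and 392 CPM, 12.5-fold (11.1 to 14.1) and 19.7-fold (17.6 to 22.2) higher. DAG1, dystroglycan, stood at 35.5, 223 and 194 CPM. UTRN, the dystrophin relative utrophin, stood at 1014, 447 and 396 CPM and the syntrophin gene SNTB2 at 105, 328 and 289 CPM, neither past the rule.

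PEG10 is one of several mammalian genes derived from retrotransposons, of which 23 were listed and 19 had a row. Few were expressed, with 5 above the floor in BM-MSC against PBMC, 3 of them called higher (RTL5, LDOC1 and CCDC8) and 0 lower, beside 14.3% of all genes called higher, and 4 of those 5 reached 10 CPM in 1 library only. RTL5, which overlaps NHSL2, stood at 3.04, 59.2 and 10.2 CPM and was called higher in BM-MSC than in BMAC too, 5.77-fold (4.87 to 6.88). It was the 1 call among 5 above the floor in that comparison, beside 2.90% of all genes called higher. CCDC8 had 0 counts in PBMC and 40.1 and 23.6 CPM in the marrow libraries. LDOC1 stood at 3.56, 22.1 and 7.60 CPM. ASPRV1, a skin protease gene, which overlaps PCBP1, stood at 175, 157 and 130.3 CPM.

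Of 48 other genes reported as imprinted in human, mouse or pig, 42 had a row. In BM-MSC against PBMC 21 were above the floor, with MEG3, PHLDA2, TFPI2, DCN and PON2 called higher and ATP10A and NAP1L5 lower, a median log2 ratio of -0.27 beside -0.16 for all genes. In BMAC against PBMC 19 were above the floor, with DIRAS3, DCN and PON2 called higher and KCNQ1 and NAP1L5 lower. In BM-MSC against BMAC 22 were above the floor, with MEG3 and KCNQ1 called higher and DIRAS3 lower. Of all genes above the floor, 14.3%, 14.0% and 2.90% were called higher in these comparisons and 15.7%, 12.8% and 3.21% lower. Of the 21, 19 and 22 listed genes above the floor, 7, 6 and 7 reached 10 CPM in 1 library only, which favours a call. The calls went in both directions in every comparison, and the counts support nothing about the list.

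DCN, the matrix proteoglycan decorin, which is imprinted in mouse placenta, stood at 0.324, 171 and 512 CPM. DIRAS3, a small GTPase that restrains growth, stood out in BMAC, at 19.2 CPM against 0.583 CPM in PBMC and 0.879 CPM in BM-MSC, 21.9-fold above BM-MSC (13.1 to 39.6). TFPI2, a protease inhibitor gene that overlaps GNGT1, had 0 counts in PBMC and 21.1 and 8.13 CPM in the marrow libraries. PON2, an antioxidant enzyme gene, stood at 4.14, 28.1 and 26.3 CPM. ATP10A, a lipid flippase gene, stood at 96.1, 17.1 and 32.2 CPM, the same order as IGF2R and PLAGL1, and NAP1L5, which overlaps HERC3, at 12.6, 1.41 and 1.32 CPM. GNAS, UBE3A and GRB10, the highest of the others in counts, were not called in any comparison: GNAS, the stimulatory G protein, which overlaps LOC110257458, stood at 415, 333 and 314 CPM, the ubiquitin ligase UBE3A at 154, 89.2 and 88.8 CPM, and the growth-restraining adaptor GRB10 at 29.8, 61.9 and 107 CPM.

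Of 14 genes that set, protect or remove DNA methylation or silence imprinted regions, 11 were above the floor in BM-MSC against PBMC, with 0 called higher and 5 lower (DNMT3A, UHRF1, CTCF, TET2 and SMCHD1), beside 15.7% of all genes called lower, and a median log2 ratio of -1.91 beside -0.16 for all genes. In BMAC against PBMC 2 of 11 were called lower, TET2 and SMCHD1, beside 12.8% of all genes, with a median of -1.14 beside -0.12. Of these 11 and 11 genes, 2 and 1 reached 10 CPM in 1 library only, which favours a call. UHRF1 was among them, at 19.2 CPM in PBMC and 2.11 CPM in BM-MSC. SMCHD1, a chromatin protein that keeps some imprinted clusters and the inactive X silent, stood at 733, 73.3 and 101 CPM. TET2, which oxidises methylated cytosine and so acts in its removal, stood at 300.0, 44.6 and 73.0 CPM, and CTCF, the insulator protein, which overlaps LOC102161584, at 245, 39.4 and 71.0 CPM. TRIM28, the corepressor that protects imprints in the embryo, ran the other way at 71.8, 119 and 105 CPM. UHRF1, called lower in BM-MSC, overlaps ARRDC5. No methylation was measured.

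The genes most like each member were taken as those with the smallest Euclidean distance of log2(CPM + 1) over the 3 libraries, among 10455 named genes with at least 10 CPM in a library. PEG10 had no close match: the nearest, the type I collagen genes COL1A1 and COL1A2, lay 1.77 and 2.14 away on the log2 scale, followed by CTGF (2.54), CRYAB (2.57) and BGN (2.62). CRYAB overlaps C9H11orf1. COL1A1 stood at 0.129, 6893 and 3219 CPM, a smaller difference between the marrow libraries than that of PEG10, and CRYAB at 1.29, 3332 and 224 CPM, a larger one. Every other member above 10 CPM had a gene within 0.24. The distance counts level as well as pattern, and PEG10 was row 9 of BM-MSC, where few genes could lie near it. Its larger distance therefore does not show an unusual pattern.

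SGCE was nearest to KIF12 (0.20), GPX3 (0.37), the fibroblast protease FAP (0.39), PHLDA1 (0.46) and the matrix gene POSTN (0.49), which overlaps LOC102166397. CDKN1C was nearest to the homeobox genes IRX3 (0.02) and HOXA9 (0.20), which overlap the rows LOC110261350 and LOC106506841, and to P3H3 (0.22), ZBED2 (0.29), which overlaps CD96, and BCAR1 (0.29). PLAGL1 was nearest to R3HCC1L (0.09), RPAP2 (0.13), TMEM164 (0.18), STMN1 (0.20) and HDAC4 (0.21). IGF2R was nearest to PPP4R1L (0.13), MMS19 (0.17), PTPDC1 (0.17), NUP160 (0.22) and RAP2A (0.25), MMS19 overlapping UBTD1 and RPAP2 overlapping LOC110260382. MEST was nearest to AIMP2 (0.07), which overlaps EIF2AK1, C1R (0.08), NUDC (0.13), PSMA5 (0.14) and ADIPOR1 (0.15), and PEG3 to PRSS57 (0.24), which overlaps FSTL3, ZNF771 (0.31), ELOVL1 (0.34), FRMPD3 (0.40) and THNSL2 (0.41). With 3 libraries many genes share such a pattern, so the distances are a description.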

How the data were processed

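Per the labels' protocols, each Lexogen QuantSeq library was made from 500 ng of Trizol-extracted total RNA. The authors deposited whole-number counts per gene row with unequal library totals, taken here as unnormalized. The tools listed per the submitters' processing notes are Bowtie2 and bedtools. Build, annotation, strand setting and the rule for multiply mapped reads were not given in the sources used here. Of 26466 symbols on 26965 rows, 81 had several rows, which were added up, and 0 of these were members.

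Symbols were looked up in the RefSeq table of Sscrofa11.1 (26466 matched) for neighbours and overlaps only, and no coordinates are given. A gene whose overlapping row held at least 25% of its count in a library is named with that row. Counts were divided by the library total. Folds are ratios of CPM without pseudocount, with exact conditional (Clopper-Pearson) 95% intervals, and those of a change in a ratio of 2 genes are Woolf intervals. A library at 0 was taken as 3 counts for bounds written "at least", and no fold is given where both libraries held at most 3 counts. Copies of a molecule cannot be separated, so these intervals and bounds describe counting error alone.

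The members, the 10 companion lists, the size rule and the alternatives were chosen with earlier results of these data known. Named were all members, up to 4 genes of each companion list with the highest CPM in any library, all other imprinted genes past the rule, flanking rows and the 5 nearest patterns. Some genes that this rule takes are left out of the text, while counts and medians of lists include them. Flanking rows named beyond the nearest (CASD1, PPP1R9A, PHLDA2, KCNQ1, RTL1, PHACTR2) and genes named only as part of a small count of calls were taken after their values were seen. Calculations used Python 3.11.15, numpy 2.4.6, pandas 2.3.3 and scipy 1.17.1, with TMM factors from edgeR 4.0.16 in R 4.3.3, and were tested on simulated counts.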

Additional observations from a re-analysis of the deposited data

How the results depend on the processing

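No paired analysis was possible because each population has 1 library. Scaling with TMM or median-of-ratios factors, or by totals without ribosomal RNA and mitochondrial rows, kept the same members called in each comparison. In BM-MSC against PBMC the median log2 ratio over all genes was -0.16 by library totals, 0.23 by TMM and 0.26 by median of ratios, and 47.6%, 58.5% and 59.5% of called genes were the higher ones. IGF2R and PLAGL1 then came as near to the 4-fold line as -2.06 and -2.01. No member's log2 ratio changed sign under these scalings. The number of members past 4-fold moved with the floor. In BM-MSC against BMAC it was 3 in place of 1 with a floor of 1 CPM and 3 with no floor, IGF2 and NNAT being added. In BM-MSC against PBMC it was 3 in place of 6 with a floor of 50 CPM, where PEG10, IGF2R and PLAGL1 remained. With that floor CDKN1C left the calls of BMAC against PBMC. A pseudocount of 5 CPM ended the call of PEG3 in BM-MSC against PBMC, and a floor of 1 CPM added NNAT to that comparison. Taking the highest row of a symbol, or leaving out MEST and NNAT for their overlapping rows, changed no call. Neither setting could test the calls, because no member has several rows and MEST and NNAT were called in no comparison. At these depths 3 counts are 0.176 to 0.198 CPM, which limits the ratios of PEG10, IGF2, DLK1 and NNAT where a library held few or no counts.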
